A study of Arabidopsis thaliana with 35 samples.

Results

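The core histone genes of Arabidopsis thaliana examined here were 35 loci chosen by their locus identifiers. They encode H4 (8 genes), the replication-type H3.1 (5), the replacement variant H3.3 (3), the centromeric CENH3 (1), canonical H2A (4), H2A.X (2), H2A.W (3), H2A.Z (3) and H2B (6). They were 35 of the 28775 genes in the count table, and all 35 were among the 21115 genes with enough reads to be tested. The rule that picked them used no measured value, but earlier results of these data were known when they were chosen.

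The study measured mRNA by sequencing in the shoot apex of wild-type (WT) plants of the accession Col-0 and of clf swn plants. The latter carry the T-DNA insertion alleles clf-29 and swn-3 in CURLY LEAF and SWINGER, a pair of related methyltransferase subunits of Polycomb repressive complex 2 (PRC2), which places the repressive H3K27me3 mark. The double mutant gives no seed, so mutant seedlings were taken from the offspring of clf/+ swn/- parents, in which clf segregates. All plants were 14 days old and grown in vitro, and the sampled region held the shoot apical and axillary meristems with leaf bases, so each library mixes cell types. In bulk tissue, fewer cells of a type and less RNA per cell cannot be told apart.

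For each genotype there were untreated plants at 0 h (WT-ctrl with 5 libraries, cs-ctrl with 6) and 4 treatments sampled at 55 h with 3 libraries each: mock with DMSO (WT-M, cs-M), 5 µM of the synthetic auxin 2,4-D (WT-A, cs-A), wounding by dissection into explants (WT-W, cs-W), and both together (WT-WA, cs-WA). A wounded sample therefore differed from its mock by cutting and by being an explant in place of an intact seedling.

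The 35 libraries held between 11375703 and 18094983 counted reads, with a median of 14665511. The level of CLF, in CPM (the counts of a gene scaled to a common library total), ran from 29.5 to 55.6 across the wild-type libraries and from 0.775 to 1.92 across those labelled clf swn. For SWN the ranges were 39.6 to 68.7 CPM and 18.7 to 33.3 CPM, so insertion in this gene left reads over it. The untreated libraries came in a pair of sets, labelled C0 and C1, whose difference the labels do not explain. They stood apart in the wild type, as given below with the untreated comparison.

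DNA in the nucleus is wound around a protein core with 2 copies each of H2A, H2B, H3 and H4. The plant genes for H4, H3.1, canonical H2A and H2B are expressed mainly while DNA is copied, when new chromatin has to be filled, and their mRNA is used as a sign of cells in S phase. H3.3 and H2A.Z are made through the cell cycle and are exchanged into chromatin outside replication; H2A.Z sits at the first nucleosomes of genes. H2A.W marks plant heterochromatin, H2A.X is phosphorylated at DNA breaks, and CENH3 marks centromeres and is loaded in dividing cells. H3K27me3 is itself carried on the H3 made from these genes.

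The genes differ in their structure and in the DNA before them. None of the 19 H4, H3.1 and H2B genes had an intron in the coding region, while all members of the other classes did. Plant histone promoters carry an octamer motif, CGCGGATC, known for S phase expression. In the 250 bases before the annotated start, on either strand, it was present in 37 of 27561 genes (0.134%) and in 9 of the 35 histone genes (25.7%): 2 H4, 3 H3.1, 1 H3.3, 2 H2A and 1 H2A.W. The hexamer ACGTCA, another element of histone promoters, was present in 2114 genes (7.67%) and in 8 histone genes (22.9%), of which 5 were H2B, 2 H3.1 and 1 H3.3. The E2F site searched, TTTCCCGC, was in 170 genes (0.617%) and in none of the 35. A match is a description of the letters in this window and not a measured binding site. The stretches show the octamer in 1 or 2 members of each class that held it. They are read 5′ to 3′ on the strand of the gene, from TAIR10.1 as annotated by RefSeq, with the octamer or its reverse complement in capitals.
AT5G59690 (H4, chr5:24051377-24051436, plus strand): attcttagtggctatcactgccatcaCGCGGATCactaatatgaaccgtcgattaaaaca
AT5G65360 (H3.1, chr5:26120674-26120733, minus strand): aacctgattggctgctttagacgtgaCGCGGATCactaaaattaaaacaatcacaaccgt
AT5G10400 (H3.1, chr5:3271044-3271103, minus strand): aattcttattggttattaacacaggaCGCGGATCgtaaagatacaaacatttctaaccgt
AT4G40040 (H3.3, chr4:18558946-18558988, minus strand): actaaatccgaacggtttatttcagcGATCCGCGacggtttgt
HTA10 (H2A, chr1:18926711-18926770, plus strand): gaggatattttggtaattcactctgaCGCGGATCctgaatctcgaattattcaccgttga
HTA6 (H2A.W, chr5:24116303-24116362, minus strand): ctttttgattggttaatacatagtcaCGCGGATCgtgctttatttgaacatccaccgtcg

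Together the 35 genes took 4043 to 7518 CPM across the libraries. H2B genes supplied 25.4% of the histone reads, H3.3 19.3%, H4 18.4%, H3.1 12.4%, H2A 7.37%, H2A.W 6.54%, H2A.Z 6.16%, H2A.X 4.19% and CENH3 0.330%. Per length of exon, the highest mean level was that of HTB2, an H2B gene, at 449 RPKM (CPM divided by the exon length in kilobases), followed by AT5G59690 (H4) at 373 and HTB9 (H2B) at 364 RPKM. The lowest levels were those of HTR12, which encodes CENH3, at 10.2 RPKM and of HTA12, an H2A.W gene, at 3.95 RPKM. The smallest count behind any value was 31 reads, for HTA12.

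Some of these genes share sequence with each other, and the counts were made from uniquely placed reads. Of the 50-base words in the exons, 30.8% in AT1G07660, 27.9% in AT3G46320, 25.7% in AT3G45930 and 19.4% in AT1G07820 occur again in the genome, so the levels of these H4 genes are uncertain. The share was 8.48% in AT5G59690, 6.94% in AT5G59970 and at most 2.12% in the other 29 genes. The library kit does not mark strand, and the exons of HTA3, AT3G27360, HTB9 and HTA12 overlap those of a neighbouring gene over 62.3%, 39.4%, 37.3% and 34.7% of their length, so reads of the pair cannot be told apart there.

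**Figure D1:**
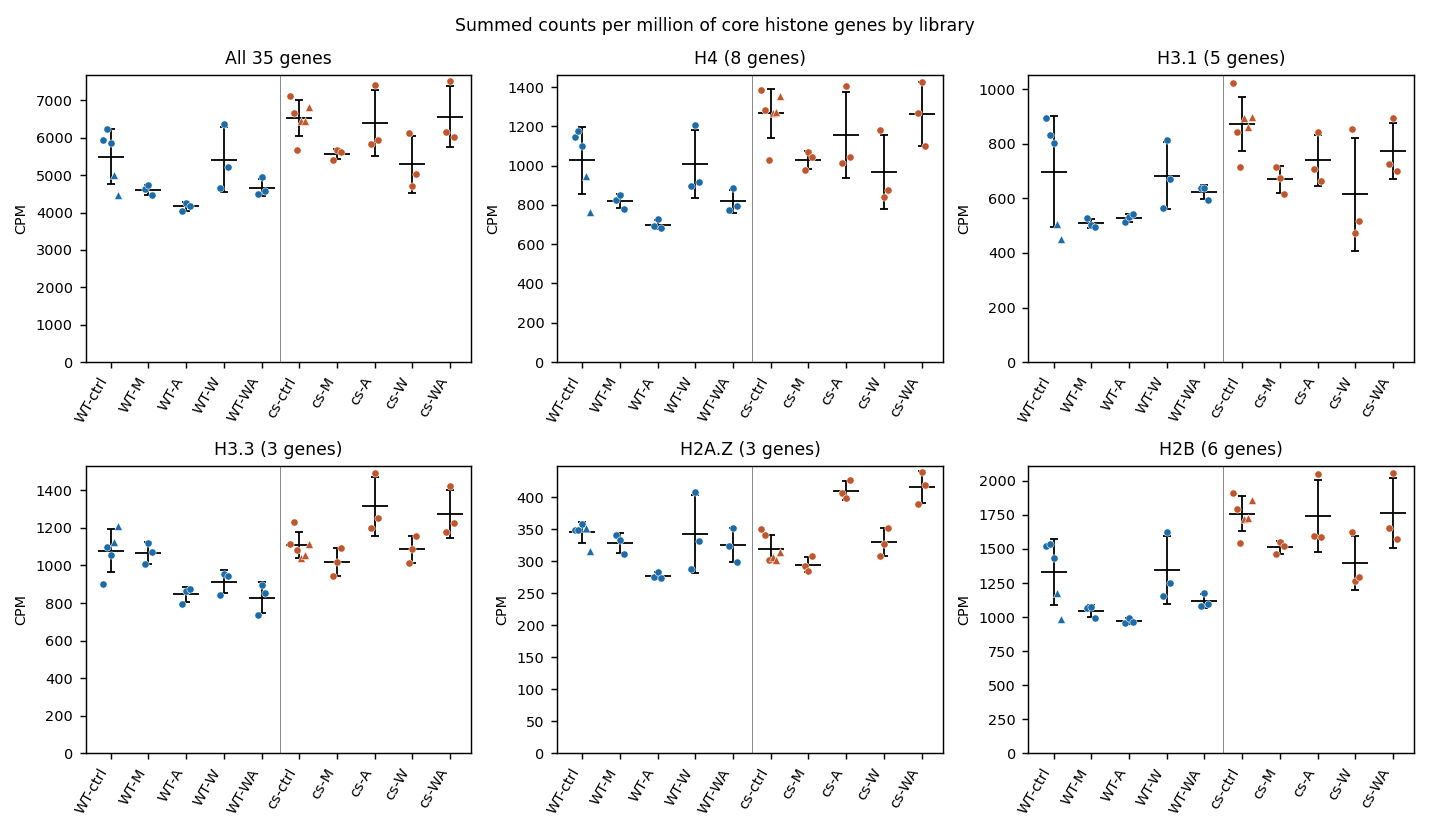
Summed level of 6 histone groupings in each library, in CPM on a linear axis, by group; each point is 1 library, triangles are the untreated set C1, and bars give the mean ± SD. The summed level of all 35 genes in the wild type with 2,4-D and wounding lies between 4489 and 4939 CPM and overlaps the mock (4475 to 4744 CPM), while the clf swn libraries with the same treatment lie between 6031 and 7518 CPM.

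The first question was whether histone mRNA rose when the wild-type apex was exposed to 2,4-D. The module as a whole did not rise. In WT-A, the sum of the 35 genes was 4043, 4263 and 4185 CPM against 4619, 4744 and 4475 CPM in WT-M, so that each library with 2,4-D lay below each mock library. The classes did not move as one. From WT-M to WT-A the mean sum went from 1066 to 846 CPM for H3.3, 819 to 700 for H4 and 1045 to 970 for H2B. It went from 329 to 277 CPM for H2A.Z, 330 to 307 for H2A and 296 to 289 for H2A.W. The mean was higher for H3.1 (508 to 529 CPM), H2A.X (207 to 227) and CENH3 (12.8 to 18.2). A gene was called changed at an adjusted p under 0.05 (edgeR's quasi-likelihood test, Benjamini-Hochberg over the 21115 genes) together with a log2 fold change of at least 0.6. By this rule 1 histone gene rose and 1 fell, against a background of 40.4% of all genes called (19.7% higher and 20.7% lower). The median log2 fold change of the 35 genes was -0.13, with 22 below 0, and the median size of change was 0.21 against 0.53 over all genes. The 95% interval lay within ±0.6 for 19 of the 35 and within ±1 for 34. On adjusted p alone, 3 were higher and 8 lower, and this looser rule called 59.6% of all genes.

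With wounding of the wild type, few histone genes passed the rule. In WT-W 2 genes rose and none fell (edgeR; none was lower with DESeq2 either, and 2 were at an unadjusted p under 0.05). Of all genes 19.1% were called, 10.8% higher and 8.31% lower. The estimates of 31 of 35 genes were above 0 with a median of 0.40, against a median of 0.02 over all genes. By adjusted p alone, 12 were higher and 2 lower, with 37.8% of all genes called. The called genes were HTA11, encoding an H2A.Z, at 0.81 ± 0.16 (SE, adjusted p = 0.00028, edgeR), and AT5G59970 (H4) at 0.61 ± 0.18 (adjusted p = 0.0076, edgeR). With the replicate number as a block AT5G59970 stood at 0.60 (adjusted p = 0.0081, edgeR), just under the size asked for, and 1 gene was called. These libraries were uneven. The summed level was 4658, 6360 and 5211 CPM, and the lowest of these was inside the range of the mock libraries. Without WT-W replicate 2, the highest, no gene was called, and without WT-W replicate 1, the lowest, 10 were. The count was 4 without WT-M replicate 1, and 1, HTA11, without WT-M replicate 3, WT-A replicate 2, WT-WA replicate 1, WT-ctrl C0 replicate 3 or cs-W replicate 3. The summed CPM of 18 DNA replication genes in the same libraries was 781, 1088 and 1223, with replicate 3 highest, and its part in the result was not tested.

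With 2,4-D and wounding together, the wild type had 3 histone genes higher and 2 lower, against 48% of all genes called (23% higher and 25% lower). On adjusted p alone the counts were 7 and 6, with 66.1% of all genes called. The median log2 fold change was 0.04, with 20 estimates above 0 and 15 below, and the median size of change was 0.30 against 0.65 over all genes. The sum was 4489, 4939 and 4578 CPM, overlapping that of the mock. Between WT-WA and WT-A no histone gene was called (0 by edgeR and by DESeq2; 3 higher and 1 lower at an unadjusted p under 0.05; 6.04% of all genes called).

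In clf swn the same treatments called no histone gene in edgeR. 2,4-D alone gave 0 of 35 with 12.2% of all genes called, wounding gave 0 with 1.07%, and both together gave 0 with 18.3%. At an unadjusted p under 0.05, 7, 1 and 6 genes were higher in these comparisons and none lower. The share of all genes at that unadjusted rule is not given, so these counts do not set the histone genes apart. DESeq2 called 0, 0 and 1, the last being HTA8. On adjusted p alone 4 were higher with 2,4-D (23.4% of all genes called), 0 with wounding, and 3 with both (30.9%). The medians were 0.19, -0.09 and 0.17. Intervals lay within ±1 for 34, 35 and 35 genes, so changes larger than 2-fold were outside the interval for nearly all of them. The sum was 5410, 5670 and 5607 CPM in cs-M, 5840, 7420 and 5936 CPM in cs-A, and 6152, 7518 and 6031 CPM in cs-WA. All libraries with 2,4-D lay above the mock libraries, and replicate 2 stood highest in both groups. In cs-W the sum was 6135, 4699 and 5028 CPM, with replicate 1 above the mock range and the others below it.

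**Figure D2:**
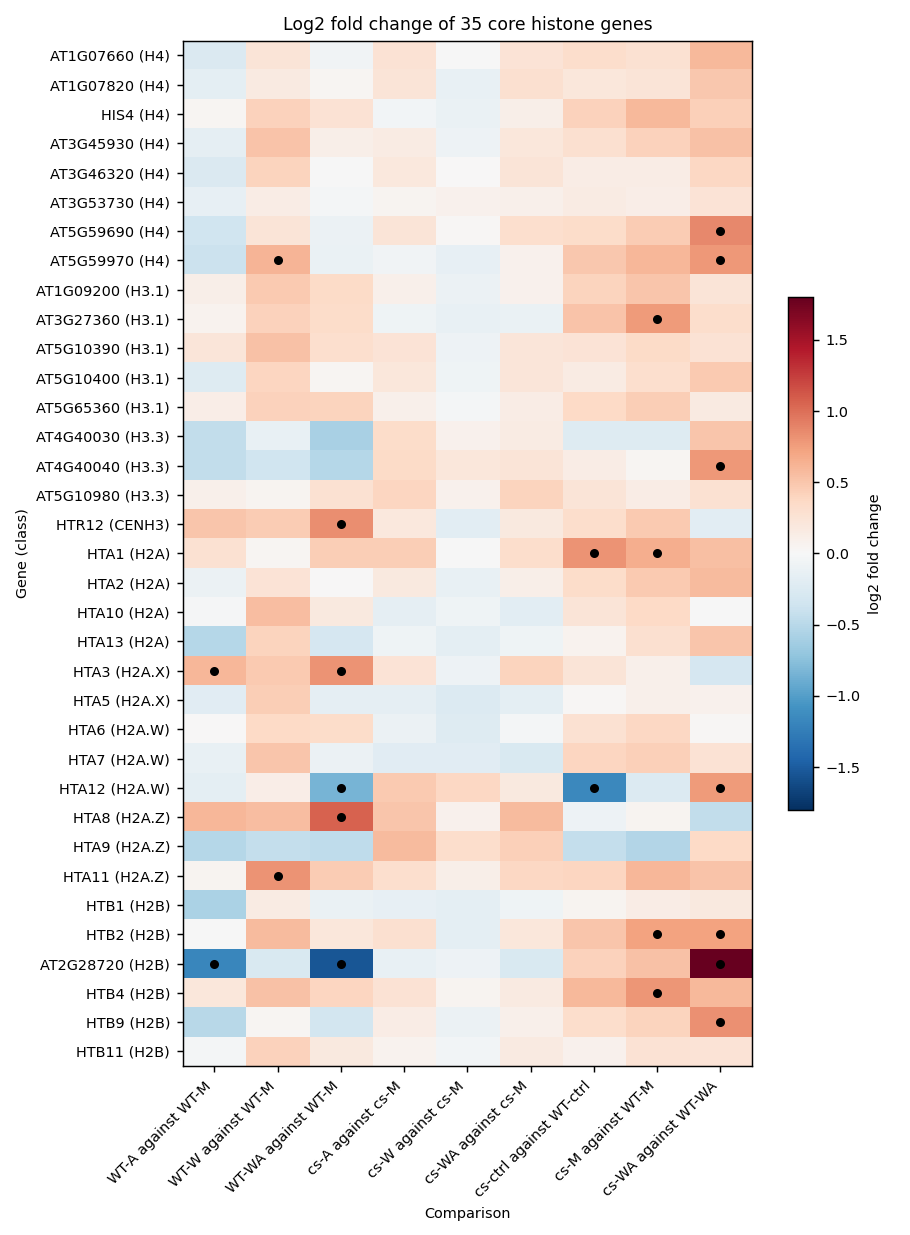
Heat map of the log2 fold change of each of the 35 genes (rows, by class) in 9 comparisons (columns), against mock and between genotypes, with a dot where a gene was called. Most cells are pale; the darkest are both of AT2G28720, which was higher by 1.79 in cs-WA than in WT-WA and fell by 1.54 in WT-WA against mock.

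Class by class, the estimates in WT-WA lay in different directions. H4, with a median of -0.02 and estimates from -0.12 to 0.26, did not pass the test in any of its 8 genes at an unadjusted p under 0.05, and all 8 intervals lay within ±0.6. H3.1 had 5 of 5 estimates above 0 with a median of 0.34, none of which passed. H3.3 had a median of -0.52, and canonical H2A one of 0.09. The 6 H2B genes had a median of 0.03 and ran from -1.54 to 0.39.

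Of the H4 genes, AT5G59690 gave most reads. It stood at 221, 220 and 196 CPM in WT-M, 174, 172 and 153 CPM in WT-A, 224, 311 and 210 CPM in WT-W, and 195, 226 and 177 CPM in WT-WA. All WT-A libraries were below the mock, and the WT-WA libraries overlapped it. The clf swn libraries gave 270, 290 and 292 CPM in cs-M, 301, 406 and 311 CPM in cs-A, 315, 258 and 265 CPM in cs-W, and 363, 423 and 326 CPM in cs-WA. The log2 fold change in WT-A was -0.36 ± 0.15 (adjusted p = 0.039, under the size asked for) and in cs-A 0.23 ± 0.15 (adjusted p = 0.27), both with edgeR, although each cs-A library was above the cs-M range. The response to 2,4-D differed between the genotypes by 0.59 ± 0.21 (interaction term, adjusted p = 0.022, edgeR), a call lost without cs-A replicate 2 (0.47), cs-M replicate 1 (0.55) or WT-A replicate 3 (0.54). The call was also lost without the treated libraries of replicate number 1, 2 or 3.

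AT5G65360, the most expressed H3.1 gene, stood at 169, 153 and 163 CPM in WT-M, 166, 182 and 184 CPM in WT-A, 182, 251 and 212 CPM in WT-W, and 223, 218 and 201 CPM in WT-WA. Each WT-WA and WT-W library was above each mock library, but the log2 fold change in WT-WA, 0.40 ± 0.20, did not pass (adjusted p = 0.078, edgeR). The mutant values were 237, 209 and 196 CPM in cs-M, 230, 253 and 209 CPM in cs-A, 281, 159 and 167 CPM in cs-W, and 242, 276 and 223 CPM in cs-WA, with all treated groups overlapping the mock.

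The H3.3 estimates lay apart from those of H3.1. AT4G40030 and AT4G40040 are neighbours on chromosome 4 and encode the same class. AT4G40040 stood at 511, 568 and 554 CPM in WT-M, 362, 425 and 415 CPM in WT-A, 382, 459 and 423 CPM in WT-W, and 314, 446 and 386 CPM in WT-WA. All 9 treated wild-type libraries were below all mock libraries. In clf swn it stood at 501, 551 and 574 CPM in cs-M, 625, 779 and 686 CPM in cs-A, 515, 627 and 663 CPM in cs-W, and 605.5, 734 and 676 CPM in cs-WA. There the libraries with 2,4-D were all above the mock. The log2 fold change was -0.45 ± 0.13 in WT-A (adjusted p = 0.0055, edgeR) and -0.52 ± 0.13 in WT-WA (adjusted p = 0.0013, edgeR), both smaller than the size asked for. In cs-A it was 0.34 ± 0.13 (adjusted p = 0.067, edgeR) and in cs-WA 0.23 ± 0.13 (adjusted p = 0.21, edgeR). The genotypes differed by 0.79 ± 0.19 for 2,4-D (adjusted p = 0.0013, edgeR interaction) and by 0.75 ± 0.19 for both treatments (adjusted p = 0.002, edgeR interaction).

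AT4G40030 behaved likewise, with -0.58 ± 0.08 in WT-WA (adjusted p = 2.7e-07, edgeR, just under the size asked for) and 0.15 ± 0.08 in cs-WA (adjusted p = 0.16, edgeR). The difference between the genotypes was 0.73 ± 0.11 (adjusted p = 5.1e-06, edgeR interaction). The third H3.3 gene, AT5G10980, did not share this pattern in the wild type, where it was higher in WT-WA by 0.27 on the log2 scale, past the adjusted p alone.

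Read as a ratio, the summed H3.1 level over the summed H3.3 level was 0.479 ± 0.039 (SD, n = 3) in WT-M, 0.626 ± 0.016 in WT-A, 0.745 ± 0.096 in WT-W and 0.759 ± 0.093 in WT-WA. Every treated wild-type library was above every mock library. The untreated WT-ctrl libraries ran from 0.374 to 0.996, a range that held all mock and treated wild-type libraries. Set C0 stood at 0.759 to 0.996 and set C1 at 0.374 and 0.4497. The rise over the mock was thus within the spread of untreated plants. In clf swn the ratio was 0.663 ± 0.097 in cs-M, 0.562 ± 0.030 in cs-A, 0.576 ± 0.23 in cs-W and 0.606 ± 0.031 in cs-WA, with overlapping ranges. The untreated cs-ctrl libraries ran from 0.6605 to 0.917. Exact permutation of 3 against 3 libraries cannot go below 0.10 two-sided, so no p is given for these sums.

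HTR12, the only CENH3 gene, stood at 12.97, 11.8 and 13.8 CPM in WT-M, 17.8, 19.1 and 17.6 CPM in WT-A, 14.5, 21.4 and 16.5 CPM in WT-W, and 22.7, 24.3 and 22.3 CPM in WT-WA. The WT-WA libraries were the highest of the treated wild type, with a log2 fold change of 0.84 ± 0.19 (adjusted p = 0.00032, edgeR). In clf swn it stood at 19.97, 17.4 and 14.8 CPM in cs-M, 20.18, 21.7 and 18.5 CPM in cs-A, 16.3, 12.7 and 15.3 CPM in cs-W, and 16.9, 25.1 and 20.4 CPM in cs-WA, where mock and treated libraries overlapped. The genotypes differed in WA by -0.66 ± 0.27 (adjusted p = 0.044, edgeR interaction), a call kept in 24 of 38 fits that left out 1 library or 1 replicate number and lost in the others, with the replicate block (-0.67, adjusted p = 0.051, edgeR) and, for instance, without WT-M replicate 2 (-0.61) or cs-WA replicate 1 (-0.54).

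The H2A.Z genes split. HTA9 stood at 230, 230 and 211 CPM in WT-M, 165, 153 and 152 CPM in WT-A, 156, 176 and 164 CPM in WT-W, and 161, 180 and 149 CPM in WT-WA. Every treated wild-type library was below the mock. In clf swn HTA9 stood at 146, 145 and 161 CPM in cs-M, 249, 208 and 222 CPM in cs-A, 150.4, 203 and 190.1 CPM in cs-W, and 217, 213 and 212 CPM in cs-WA. Here the libraries with 2,4-D were all above the mock. The log2 fold change was -0.52 ± 0.10 in WT-A (adjusted p = 0.0001, edgeR) and 0.57 ± 0.11 in cs-A (adjusted p = 0.00022, edgeR), neither reaching the size asked for. The difference between the genotypes was 1.09 ± 0.15 for 2,4-D (adjusted p = 8.5e-07, edgeR interaction), 0.74 ± 0.15 for wounding (adjusted p = 0.0014, edgeR interaction) and 0.88 ± 0.15 for both (adjusted p = 1.7e-05, edgeR interaction).

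HTA8 went the other way in the wild type. It stood at 25.9, 23.8 and 21.9 CPM in WT-M, 35.5, 38.9 and 34.4 CPM in WT-A, 25.7, 46.0 and 32.9 CPM in WT-W, and 48.3, 55.5 and 46.5 CPM in WT-WA. The WT-A and WT-WA libraries were all above the mock, and the rise in WT-WA was 1.06 ± 0.18 (adjusted p = 1.1e-05, edgeR). In clf swn it stood at 24.5, 25.5 and 22.6 CPM in cs-M and at 36.1, 40.0 and 37.8 CPM in cs-WA, again without overlap, with 0.57 ± 0.19 (adjusted p = 0.02, edgeR). This misses the size of 0.6, and several alternative fits moved it just past it. The 2 responses were not shown to differ (interaction -0.49 ± 0.26, 95% interval -1.03 to 0.04, adjusted p = 0.13, edgeR).

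**Figure D3:**
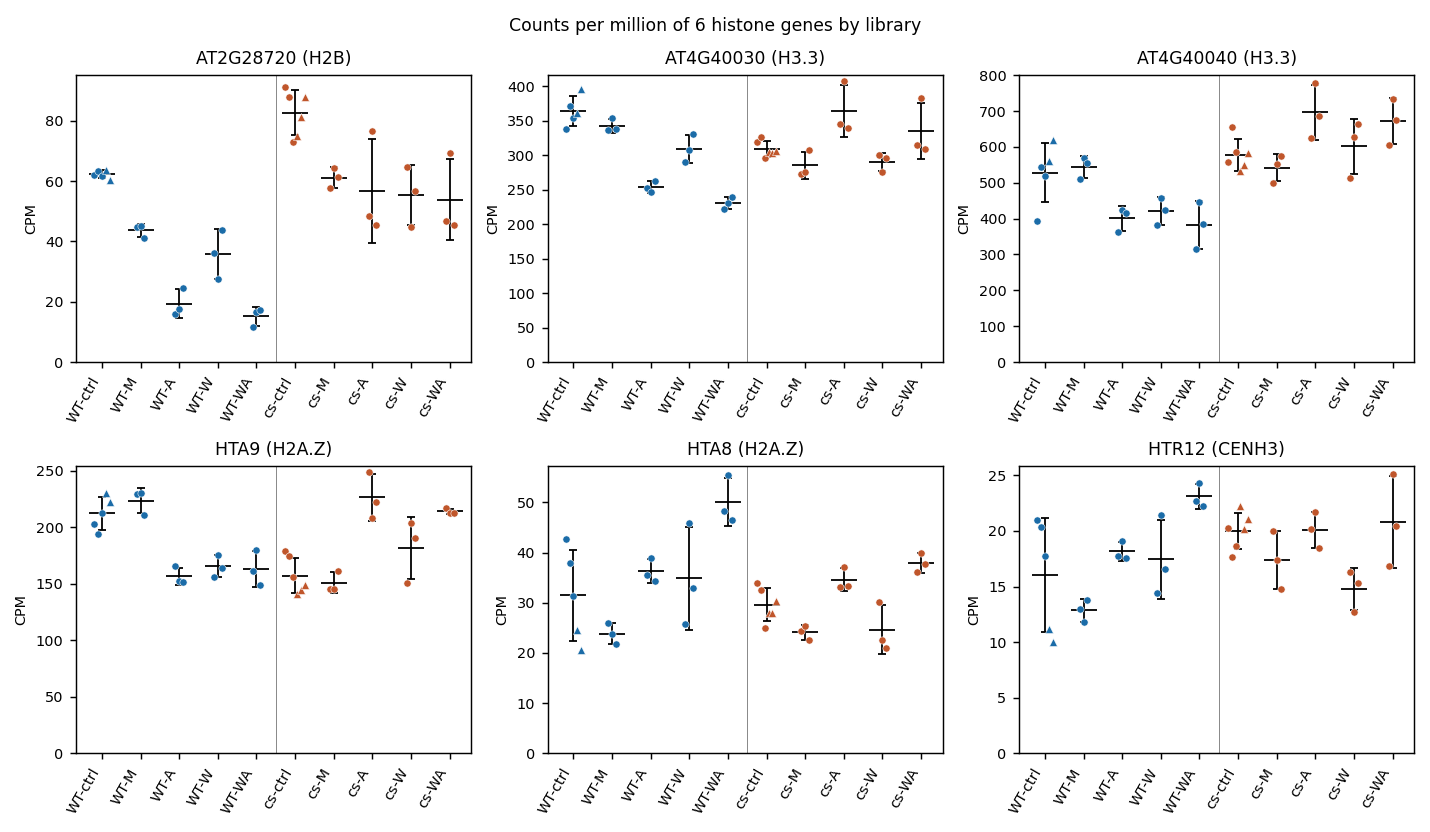
Level of 6 single genes (AT2G28720, AT4G40030, AT4G40040, HTA9, HTA8 and HTR12) in every library, in CPM on linear axes, by group; points are libraries and bars the mean ± SD. AT2G28720 stands at 41.1 to 45.1 CPM in the wild-type mock and at 11.7 to 17.1 CPM with 2,4-D and wounding, and HTA9 lies below the mock in the treated wild type and above it in clf swn with 2,4-D.

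The largest change of a histone gene against its mock was the fall of AT2G28720, an H2B gene. It stood at 44.9, 45.1 and 41.1 CPM in WT-M, 15.97, 17.5 and 24.7 CPM in WT-A, 36.0, 27.4 and 43.9 CPM in WT-W, and 11.7, 16.6 and 17.1 CPM in WT-WA. The libraries with 2,4-D lay far below the mock, and those with wounding alone overlapped it. In clf swn it stood at 57.8, 64.5 and 61.2 CPM in cs-M, 48.4, 76.6 and 45.4 CPM in cs-A, 64.8, 44.8 and 56.7 CPM in cs-W, and 46.8, 69.3 and 45.5 CPM in cs-WA, with overlap throughout. It fell by 1.18 on the log2 scale in WT-A (SE 0.19, adjusted p = 5.4e-06, edgeR) and by 1.54 in WT-WA (SE 0.19, adjusted p = 6e-08, edgeR). In cs-WA the estimate was -0.27 ± 0.18 (adjusted p = 0.29, edgeR). The genotypes differed by 1.04 ± 0.26 for 2,4-D (adjusted p = 0.002, edgeR interaction) and by 1.27 ± 0.27 for both treatments (adjusted p = 0.00028, edgeR interaction). The H4 gene HIS4 lies next to it on chromosome 2, and its estimate in WT-WA was 0.26 ± 0.16 (adjusted p = 0.17, edgeR).

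HTB4, the H2B gene with the most reads, did not fall. It stood at 297, 298 and 275 CPM in WT-M, 352, 330 and 325 CPM in WT-A, 380.1, 486 and 379 CPM in WT-W, and 383, 390 and 368 CPM in WT-WA, every treated library being above the mock. The estimate in WT-WA was 0.39 ± 0.12 (adjusted p = 0.0057, edgeR), under the size asked for. In the mutant HTB4 stood at 487, 498 and 491 CPM in cs-M, 593, 644 and 550 CPM in cs-A, 565, 467 and 445 CPM in cs-W, and 583, 646 and 524 CPM in cs-WA.

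Of the H2A.X genes, HTA3 rose in WT-A (0.60 ± 0.17, adjusted p = 0.0034, edgeR) and in WT-WA (0.80 ± 0.17, adjusted p = 0.00016, edgeR). The first sits at the limit and was lost without WT-A replicate 3 (0.51), WT-A replicate 2 (0.56), WT-M replicate 1, WT-WA replicate 1, WT-ctrl C0 replicate 3 or cs-W replicate 3 (0.59 each). It was also lost without the treated libraries of replicate number 2 or 3. With the replicate block over all libraries it was 0.60 (adjusted p = 0.0044, edgeR), just short of the size asked for, so that no histone gene rose in WT-A by the rule. HTA3 stood at 69.6, 70.6 and 71.7 CPM in WT-M and at 115, 126 and 130.4 CPM in WT-WA, far apart, with the overlap of exons noted above. In clf swn HTA3 stood at 63.7, 80.8 and 74.4 CPM in cs-M and at 98.3, 121 and 88.9 CPM in cs-WA, again without overlap. It was not called in cs-WA, nor in the interaction with both treatments. HTA5, the other H2A.X gene, stood at 142, 132 and 136 CPM in WT-M, 113, 122 and 124 CPM in WT-A, 159, 214 and 179 CPM in WT-W, and 112, 135 and 120 CPM in WT-WA. Its estimate in WT-WA was -0.17 ± 0.17 (adjusted p = 0.41, edgeR). In clf swn HTA5 stood at 125, 157 and 142 CPM in cs-M, 106, 166 and 116 CPM in cs-A, 140.3, 89.8 and 115 CPM in cs-W, and 117, 160.0 and 120.1 CPM in cs-WA, overlapping in each treatment.

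Of the 4 canonical H2A and 3 H2A.W genes, 1 was called in WT-WA. HTA10, the H2A gene with the most reads, stood at 127, 131 and 134 CPM in WT-M, 126, 129 and 133 CPM in WT-A, 141, 219 and 211 CPM in WT-W, and 147, 141 and 156 CPM in WT-WA. Every WT-WA library was above the mock, and the 95% interval of the log2 fold change ran from -0.15 to 0.50. In clf swn HTA10 stood at 178, 163 and 149.9 CPM in cs-M, 136, 169 and 141 CPM in cs-A, 200.4, 116 and 133 CPM in cs-W, and 139, 174 and 143 CPM in cs-WA, all overlapping.

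HTA6, the main H2A.W gene, stood at 197, 199 and 187 CPM in WT-M, 189, 209.9 and 190.3 CPM in WT-A, 205, 310.1 and 228 CPM in WT-W, and 248, 261 and 230 CPM in WT-WA. The WT-WA libraries were above the mock with an estimate of 0.33 ± 0.19 that did not pass (adjusted p = 0.12, edgeR). In clf swn HTA6 stood at 259, 241 and 240.4 CPM in cs-M, 214, 269 and 213 CPM in cs-A, 275, 157 and 178 CPM in cs-W, and 215, 308 and 244 CPM in cs-WA, which overlapped. The faint H2A.W gene HTA12 fell in WT-WA, from 7.18, 7.07 and 3.93 CPM to 3.75, 3.07 and 3.46 CPM (-0.83 ± 0.28, adjusted p = 0.01, edgeR), a call lost without WT-M replicate 2 (-0.69). The call was also lost without the treated libraries of replicate number 1 or 2.

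**Figure D4:**
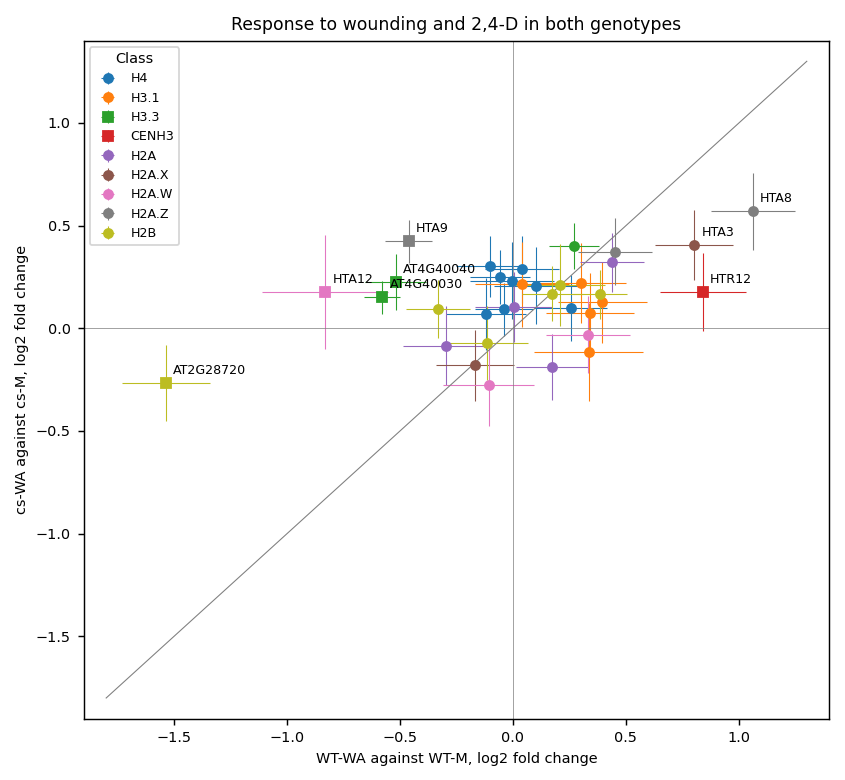
Log2 fold change of each histone gene with 2,4-D and wounding in the wild type (x axis) and in clf swn (y axis), each point 1 gene with its standard errors, coloured by class; squares mark genes whose response differed between the genotypes. Most points lie near 0 on both axes, and AT2G28720 stands at -1.54 and -0.27.

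The second question was whether the response differed with PRC2. Against background shares of 44.8% for 2,4-D, 15.1% for wounding and 45.2% for both, the interaction term passed an adjusted p of 0.05 (edgeR) in 7, 4 and 6 of the 35 genes. For 2,4-D all 7 were higher in clf swn than in the wild type relative to mock: AT2G28720, HTA9, AT4G40030, AT4G40040, HTB9, AT5G59690 and AT1G07660, where 23.9% of all genes were relatively higher and 20.8% lower. For both treatments, 5 were relatively higher in clf swn (AT2G28720, HTA12, HTA9, AT4G40030 and AT4G40040) and HTR12 was relatively lower, against 24.4% and 20.8% of all genes. The call of the faint HTA12 was kept in 29 of 38 fits that left out 1 library or 1 replicate number. For wounding, AT4G40040 and HTA9 were relatively higher and AT5G59970 and HTA11 relatively lower, against 8.67% and 6.39%. The wounding count was not stable. It was 5 with the replicate number as a block over all libraries, 8 with the block over treated libraries only and 8 with DESeq2. It was 18 without cs-W replicate 1, 10 without WT-W replicate 1, 9 without WT-ctrl C1 replicate 2, and 1 or 2 without any single cs-M or WT-M library, WT-W replicate 2 or 3, or cs-W replicate 2 or 3. Without all treated libraries of replicate number 1, 2 or 3 it was 16, 0 or 1. The 2,4-D count was 4 without the treated libraries of replicate number 2.

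The third question was the level in the mutant without and with treatment. In the mock plants the sum of the 35 genes was 5562 ± 136 CPM (SD, n = 3) in cs-M and 4613 ± 134 CPM in WT-M, 1.21 times as high, with no overlap. By the rule 4 genes were higher in cs-M and none lower (edgeR; 0 lower with DESeq2; 2 lower at an unadjusted p under 0.05), against 31.5% of all genes called (14.4% higher and 17.1% lower). The looser rule gave 15, with 47.7% of all genes called. The called genes were HTB4 (0.80), AT3G27360 (0.77), HTB2 (0.73) and HTA1 (0.66). The median over the 35 was 0.36. Without WT-M replicate 1 the count was 7, and without WT-M replicate 3 it was 2.

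With 2,4-D and wounding the sums were 6567 ± 826 CPM in cs-WA against 4669 ± 238 CPM in WT-WA (SD, n = 3). Here 7 genes were higher and none lower in clf swn (edgeR; 0 lower with DESeq2; 1 lower at an unadjusted p under 0.05), against 43.1% of all genes called (23.4% higher and 19.8% lower). With adjusted p alone the count was 20, with 63.4% of all genes called. The largest were AT2G28720 at 1.79 ± 0.19 (adjusted p = 5e-09, edgeR), AT5G59690 at 0.86 ± 0.15 (adjusted p = 1.3e-05, edgeR) and HTB9 at 0.82 ± 0.14 (adjusted p = 1.2e-05, edgeR), followed by AT5G59970 (0.78), AT4G40040 (0.78), HTA12 (0.76) and HTB2 (0.73). The median was 0.43, with H2B at 0.66 and H4 and H3.3 at 0.50 each. The count was 11 without cs-WA replicate 3. The HTA12 call was kept in 34 of 38 fits that left out 1 library or 1 replicate number. The class medians of H2A.X (-0.12) and CENH3 (-0.19) were on the other side of 0.

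In the untreated plants HTA1, an H2A gene known as RAT5 for its part in transformation by Agrobacterium, was higher in clf swn. It stood at 31.3 to 47.1 CPM in WT-ctrl (median 37.5) and at 60.1 to 78.2 CPM in cs-ctrl (median 66.9), with no overlap (0.81 ± 0.11, adjusted p = 1.6e-07, edgeR). HTA12 was lower, with a range of 5.54 to 13.3 CPM across WT-ctrl and of 2.64 to 5.71 CPM across cs-ctrl (-1.16 ± 0.20, adjusted p = 1.2e-05, edgeR). No other histone gene was called, against 34% of all genes (13.6% higher and 20.4% lower), and on adjusted p alone 19 were, against 60.5%.

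The untreated wild-type values rested on a pair of unlike sets. The summed histone level was 5866 to 6237 CPM in the 3 C0 libraries and 4460 to 4995 CPM in the 2 C1 libraries, and H3.1 stood at 802 to 896 CPM and 453 to 507 CPM. In 28 of 35 histone genes all C0 libraries were above all C1 libraries, and in 3 the reverse, against 21.3% and 20.6% of all genes. In cs-ctrl the counts were 2 and 3 of 35, against 10.7% and 15.9%. The sum of the 18 DNA replication genes moved with the sets, at 1041 to 1556 CPM in C0 and 507 to 594 CPM in C1, and its part in the result was not tested. Leaving out the C1 libraries of the wild type, or the C0 ones, changed the calls. Against the wild-type C1 set alone, 18 histone genes were higher and 1 lower in cs-ctrl. Without WT-ctrl C0 replicate 2 the count was 4. The share of all genes called in these fits is not given, so the counts are not shown to be particular to histone genes.

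The mock treatment itself called no histone gene in either genotype, by edgeR or by DESeq2. By edgeR, 1.96% of all genes were called in WT-M against WT-ctrl and 0.995% in cs-M against cs-ctrl. At an unadjusted p under 0.05, 22 and 7 histone genes were lower and none higher. The share of all genes at that unadjusted rule is not given, so these counts do not set the histone genes apart. On adjusted p alone 1 gene was lower in WT-M (2.85% of all genes called). The medians were -0.36 and -0.25. With the C0 set alone, 14 histone genes were lower in WT-M, and without WT-ctrl C1 replicate 2, 4 were. The share of all genes called in these fits is not given, so the counts are not shown to be particular to histone genes. In clf swn, no histone gene was called between cs-WA and cs-A (0 by edgeR and by DESeq2; 1 lower at an unadjusted p under 0.05; 5.6% of all genes called).

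Other histone genes and genes that act with histones gave a measured background to the module. Their counts stand against 23% of all genes higher and 25% lower in WT-WA, 9.81% and 8.49% in cs-WA, and 14.4% and 17.1% in cs-M against WT-M, with medians over all genes between -0.02 and 0. Of 11 further core histone loci, 9 had enough reads, and in WT-WA 6 of these rose and 1 fell. AT3G53650, an H2B gene, rose by 1.04 ± 0.21 on the log2 scale (adjusted p = 9.3e-05, edgeR) and was higher in cs-M than in WT-M by 1.74 ± 0.21 (adjusted p = 9.4e-08, edgeR). This gene was chosen for mention after its values were seen. Some of these loci were close to the limit of counting: AT1G75600, which also rose, stood at 0 to 0.0690 CPM in WT-M and 0.922 to 1.70 CPM in WT-WA, and HTA4, which fell, at 0.849 to 1.38 CPM and 0.0652 to 0.329 CPM. In cs-WA 3 rose. Of the 3 linker histone H1 genes, HIS1-3, the stress-inducible one, rose in WT-A by 2.27 ± 0.26 (adjusted p = 1.7e-08, edgeR) but stood at 0.18 ± 0.26 in WT-WA (adjusted p = 0.55, edgeR), lower than in WT-A by 2.09 (adjusted p = 4.4e-06, edgeR). It rose in cs-A by 1.53 ± 0.25 (adjusted p = 4.6e-05, edgeR) and in cs-WA by 0.89 ± 0.25 (adjusted p = 0.0065, edgeR). HIS1-3 was also higher in cs-M than in WT-M by 3.74 ± 0.28 (adjusted p = 3.7e-12, edgeR). The other H1 genes, AT1G06760 and AT2G30620, were called in no comparison. Of all genes 19.7% were higher in WT-A, 5.82% were higher in cs-A, and 4.79% were lower in WT-WA than in WT-A.

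Of the 18 DNA replication genes, 9 rose and 1 fell in WT-WA (23% and 25% of all genes) with a median of 0.64, and none was called in cs-WA (edgeR; 18.3% of all genes), with a median of 0.08. By level the leading members were RNR1 and TSO2, which encode subunits of ribonucleotide reductase, and MCM7, part of the replicative helicase. TSO2 rose in WT-WA by 0.91 ± 0.31 (adjusted p = 0.012, edgeR). Of 15 mitosis genes 7 rose in WT-WA (23% of all genes), none in cs-WA (9.81%), and 7 were higher and 1 lower in cs-M than in WT-M (14.4% and 17.1%), with medians of 0.57, 0.06 and 0.56. Of 20 histone chaperone and variant-loading genes, 4 rose in WT-WA, among them NRP1, a chaperone of H2A and H2B (0.82 ± 0.15, adjusted p = 2.6e-05, edgeR), and none was called in cs-WA. Of 6 genes of H3K27 monomethylation and E2F control, 3 rose in WT-WA and none in cs-WA. In WT-WA E2FC rose by 0.84 ± 0.14 (adjusted p = 6.1e-06, edgeR), while E2FB was not called (-0.29 ± 0.15, adjusted p = 0.083, edgeR).

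Markers of other tissues moved with the treatments. The summed level of 6 leaf mesophyll markers was 10921 to 13182 CPM in WT-M and 1290.2 to 1424 CPM in WT-WA. The mutant ranges were 7022 to 8285 CPM for cs-M and 5119 to 7065 CPM for cs-WA. All 6 fell in WT-WA and 1 of 6 in cs-WA. Of the 8 shoot meristem markers tested, 6 fell in WT-WA and 1 in cs-WA. Of 8 root markers tested, 6 rose and 2 fell in WT-WA, and 6 rose in cs-WA. Of all genes, 23% were higher and 25% lower in WT-WA, and 9.81% and 8.49% in cs-WA. In cs-M against WT-M, 5 of the 8 shoot meristem markers were higher and 1 lower. Lower there were 4 mesophyll markers and 1 root marker, and of all genes 14.4% were higher and 17.1% lower. The shoot meristem sum was 189 to 267 CPM in WT-M and 363 to 436 CPM in cs-M. In cs-WA against WT-WA, 7 shoot meristem, 5 mesophyll and 3 root markers were higher, and 2 root markers were lower. Of all genes 23.4% were higher and 19.8% lower in that comparison. The part of these markers in the histone values was not tested.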

How the data were processed

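mRNA of shoot apexes was sequenced in 35 libraries of 10 groups. The authors deposited raw counts per gene, made from TruSeq libraries without strand information by trimming with Trimmomatic 0.32, alignment to TAIR10 with TopHat2 2.0.10 keeping unique alignments, and counting with HTSeq; the submitters' processing notes also name FastQC and DESeq2. Reads that fit several near-identical genes are thus left out. Library totals were 11375703 to 18094983. The counts were tested with edgeR 4.0.16 (quasi-likelihood, TMM scaling, filterByExpr) in R 4.3.3, 1 fit over all groups, with Benjamini-Hochberg adjustment over 21115 genes; calls were made at adjusted p under 0.05 with log2 changes of 0.6 or more, for interactions at the adjusted p alone. CPM values use library totals. The tests were checked on simulated counts. DESeq2 1.42.0, other scalings and filters, each untreated set and leaving out libraries were alternatives.

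Groups and replicate numbers came from the sample labels and the names of the count columns. The mock columns are named only as a control set. They were matched to the mock by the number of samples and by library totals in the study's read statistics. Untreated columns could be tied to their group only. In those read statistics the totals of the wounded replicate 2 libraries look exchanged between the genotypes. The deposited names were kept, and CLF stood at 38.6 CPM in WT-W replicate 2 and 1.06 CPM in cs-W replicate 2. The study's methods place each replicate number in its own run, so the numbers pair the libraries: over 84 same-number pairs of treated libraries the deviations correlated at 0.122 on average (-0.294 to 0.574), over 168 other pairs at -0.0608. The study's methods state no block, so the main fit has none. P-values measure the spread between these libraries. Counts at an unadjusted p have no share of all genes beside them and do not set the histone genes apart. Values in every library are given for the member of each class with the most reads and for members called against the direction of their class; others are named where called among the 3 largest in a direction, or, with counts of 7 or fewer, after their values were seen. HTA8, HTA3, HTA12 and AT4G40030 were likewise described after their values were seen. The members and gene lists were chosen with earlier results of these data known. Genes were matched to RefSeq's TAIR10.1 annotation by locus name, all 35 of them; promoter and protein tables were not used here.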

Additional observations from a re-analysis of the deposited data

Results flagged for a closer look

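Of 90 values examined for a library far from the rest of its untreated group, 5 were flagged. How many flags this rule gives by chance is not known here, so a flag alone does not mark an unusual library. AT1G07820 stood at 140 CPM (139.6) and summed H2A.Z at 316 CPM in WT-ctrl C1 replicate 2, both the lowest of their group. In cs-ctrl C0 replicate 3, AT5G59690 at 280 CPM (280.5), AT5G59970 at 133 CPM and summed H4 at 1030 CPM (1030.5) were the lowest. These values are not independent, as summed H4 includes both genes.

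The response to treatment differed between the genotypes, by the interaction term (log2, clf swn minus wild type), in 17 cases. These were 7 of the 35 genes with 2,4-D, 4 with wounding and 6 with both. Of all genes, 44.8%, 15.1% and 45.2% were called, a larger share each time, so these calls do not set the histone genes apart. With 2,4-D these were AT1G07660 (0.53), AT5G59690 (0.59), AT4G40030 (0.77), AT4G40040 (0.79), HTA9 (AT1G52740, 1.09), AT2G28720 (1.04) and HTB9 (AT3G45980, 0.63). With wounding they were AT5G59970 (-0.76), AT4G40040 (0.56), HTA9 (0.74) and HTA11 (AT3G54560, -0.71). With both they were AT4G40030 (0.73), AT4G40040 (0.75), HTR12 (AT1G01370, -0.66), HTA12 (AT5G02560, 1.01), HTA9 (0.88) and AT2G28720 (1.27). In the wounding comparison 3 of the 4 calls, all but HTA9, were lost without WT-W replicate 2 (-0.56 for AT5G59970, 0.61 for AT4G40040 and -0.49 for HTA11).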

How the results depend on the processing

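Of 39 calls on histone genes none turned its direction under any alternative tried. RLE factors, a minimum of 10 counts in every library and DESeq2 kept all 39, library totals alone 36, no low-count filter 37, and the replicate block 36 over all libraries and 36 of 37 over treated libraries only, the latter chosen after seeing the data. Every pair of libraries apart by 0.6 was met by 7 of 22.

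Counts of called genes moved as follows. For the other fits and the fits that left out libraries, here and above, the share of all genes called is not given. Those counts are therefore not shown to be particular to histone genes. On adjusted p alone they were 11 in WT-A, 14 in WT-W, 13 in WT-WA, 4 in cs-A, 3 in cs-WA, 1 in WT-M against WT-ctrl, 19 in cs-ctrl against WT-ctrl, 15 in cs-M against WT-M and 20 in cs-WA against WT-WA. Requiring every pair apart gave 1 in WT-A, 0 in WT-W, 0 in cs-ctrl, 1 in cs-M and 1 in cs-WA, the last 3 against wild type. WT-W gave 1 with library totals and 1 with either block, and WT-A 1 with the block over all libraries. In cs-WA against mock 1 gene, HTA8, was called with RLE factors, library totals, DESeq2, only the groups compared, or the untreated wild-type set C1 alone. WT-M against WT-ctrl gave 14 with set C0 alone, and cs-ctrl against WT-ctrl 19 with the wild-type set C1 alone. WT-WA against WT-A gave 1, HTA12, with the replicate block over treated libraries. The wounding interaction gave 7 with RLE factors, 7 with at least 10 counts, 8 with the replicate block over treated libraries, 9 with set C0, 10 with set C1, 7 without untreated libraries, 8 with DESeq2 and 1 with only the groups compared. The summed level in cs-M over WT-M went from 1.21 to 1.24 with TMM-scaled sizes.

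Leaving out 1 library or replicate number gave 1 to 3 calls in WT-A, 0 to 10 in WT-W, 4 to 6 in WT-WA, 0 to 1 in cs-A and in cs-WA, and 0 to 0 in cs-W, cs-M against cs-ctrl, WT-WA against WT-A and cs-WA against cs-A. It gave 0 to 4 in WT-M against WT-ctrl, 2 to 4 in cs-ctrl against WT-ctrl, 2 to 7 in cs-M against WT-M, 6 to 11 in cs-WA against WT-WA, and 4 to 7, 0 to 18 and 4 to 6 for the interactions with 2,4-D, wounding and both. The 1 gene called in cs-A, HTA9, appeared without cs-A replicate 2 or cs-M replicate 3. The replicate block over all libraries removed the calls of HTA3 in WT-A, AT5G59970 in WT-W and HTR12 in the interaction with both treatments, added HTB4 in the wounding interaction, and changed no other call. Over treated libraries only, it removed AT5G59970 in WT-W and added HTA8 in WT-A, HTA12 in WT-WA against WT-A, AT5G59970 in cs-M against WT-M, HTR12, HTA5, HTB2 and HTB4 in the wounding interaction, and HTA8, HTB9 and AT5G59690 in that with both treatments.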
